A study of Mus musculus with 12 samples.

Results

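The genes described here are 10 members of the ATF4-linked program of amino acid synthesis, read in cultured mouse cardiac fibroblasts with and without Smad7 and with and without TGF-β1. They were chosen by name, with earlier results of these data known, and all 10 names were found among the 35275 genes of the count table. The members are Atf4, Phgdh, Psat1, Psph, Shmt2, Mthfd2, Aldh18a1, Pycr1, Asns and Chac1. All 10 also passed the filter on low counts, which kept 15150 genes for testing.

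RNA-Seq libraries were made from cardiac fibroblasts of 12-week-old mice, used at passage 2. The strain is C57BL/6 in the sample labels and C57BL/6J in the methods of the study. The cell type label of all samples gives Smad7 floxed mice as the source, whereas the titles of the control samples call them Wild Type. Cells of every group were infected for 48 hours at a multiplicity of infection of 100, with an adenovirus expressing Cre in the Smad7-KO groups and a control adenovirus in the others. The control virus carried green fluorescent protein according to the sample labels and was empty according to the methods of the study. The 4 groups of 3 libraries each were unstimulated control, control with TGF-β1, unstimulated Smad7-KO and Smad7-KO with TGF-β1. TGF-β1 was given at 10 ng/ml, for 2 hours in one label field and 4 hours in another. The libraries of a group are described as independent samples, without the culture or animal each came from, so p values measure the spread between these samples. The titles of the control libraries with TGF-β1 all carry the same sample number, though their library codes differ, whereas the titles of the other groups number the samples apart. Whether those control libraries are separate samples cannot be told from the titles. Since Cre and control cells received different viruses, the effects of Smad7 loss and of Cre expression cannot be told apart.

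ATF4 is a transcription factor whose translation rises when eIF2α is phosphorylated, as happens under amino acid shortage or endoplasmic reticulum stress. Its targets include the enzymes that make serine, glycine, proline and asparagine. Proline and glycine are the main residues of collagen, and in fibroblasts TGF-β signaling is known to draw on this program to supply them. ATF4 is controlled largely at translation, so the level of its mRNA is not the level of its activity.

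The promoter windows of the 10 members were searched for the core motif of ATF4 with C/EBP partners, TGATGNAA on either strand, where N is any base. Windows ran from 250 bases before to 50 bases after each RefSeq start (GRCm38.p6), and 3.97% of 32851 windows in the genome held the motif. It was present in the windows of 3 members, which are printed here because these genes were also among the 5 members called lower in both comparisons of Smad7-KO with control. The windows of Phgdh and Psph, the others of those 5, held none of the motifs searched. Capitals mark the match, and each sequence is written in the direction of its gene.
Chac1: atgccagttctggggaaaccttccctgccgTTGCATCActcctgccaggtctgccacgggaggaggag
Pycr1: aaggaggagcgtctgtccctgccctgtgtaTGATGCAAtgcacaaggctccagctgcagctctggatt
Asns: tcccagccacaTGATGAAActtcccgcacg

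The Chac1 stretch was at chr2:119351019-119351086 on the plus strand, and its match, on the opposite strand, began 193 bases upstream of the start. The Pycr1 stretch was at chr11:120643814-120643881 on the minus strand, with the match 103 bases upstream. The Asns stretch was at chr6:7693214-7693243 on the minus strand, with the match 23 bases upstream of the RefSeq start but inside the gene interval of the deposited table. The narrower form TGATGCAA, a subset of the first motif, was in 0.895% of windows and in the Chac1 and Pycr1 windows. A further form, TGACGCAA, was in 0.49% of windows and in the Chac1 window alone among members. The CRE palindrome TGACGTCA, present in 1.79% of windows, was in 0 member windows. The E-box CACGTG, present in 7.15% of windows, was in the Aldh18a1 window.

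Total counts were 19056916 to 25371321 per library. Smad7 was 71.4, 74.6 and 77.2 CPM (counts scaled to library size, TMM-normalised) in unstimulated control libraries and 28.6, 28.4 and 31.1 in unstimulated Smad7-KO libraries. With TGF-β1 it was 145, 150 and 142 CPM in control and 80.8, 70.0 and 79.5 CPM in Smad7-KO libraries. Smad7 RNA was thus lower in Smad7-KO than in control libraries of the same condition, but it was not absent. The Smad7-KO libraries with TGF-β1 overlapped the unstimulated controls in Smad7 level. The libraries of unstimulated controls varied most, with a biological coefficient of variation of 0.335 against 0.0530 to 0.137 in the other groups. Library 2 of that group stood apart, with the shortest of 3 equal length classes of genes lying 0.59 above and the longest class 0.50 below the 12-library mean on the log2 scale (medians). Fibroblast markers were present in every group, with a summed level of 7147 to 10976 CPM over 8 genes, of which 2 were higher (Dcn and Lum) and 2 lower (Thy1 and Tcf21) in Smad7-KO cells in both conditions. Thy1 had log2 fold changes of -1.55 and -1.34 (edgeR adjusted p = 1.32e-05 and 4.47e-05). Endothelial markers summed to 261 to 320 CPM in control libraries and 19.7 to 24.7 CPM in Smad7-KO libraries, and 6 of 8 were lower in both comparisons of Smad7-KO with control. Macrophage markers summed to 13474 to 22523 CPM in control and 18374 to 21384 CPM in Smad7-KO libraries, with 3 of 7 higher in both comparisons, and this sum, of which Lyz2 made the largest part, was above that of the fibroblast markers in every group. Cardiomyocyte markers summed to no more than 78.1 CPM, with Nppa at 0 in 3 groups and 2 of 5 tested genes lower without TGF-β1. Smooth muscle and pericyte markers summed to 55.3 to 145 CPM in control and 19.7 to 93.0 CPM in Smad7-KO libraries, with 3 of 6 tested genes lower without TGF-β1 and 2 with it. The part that these cells have in the results below was not tested, and in bulk RNA fewer cells of a type and less RNA per cell cannot be told apart.

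Most members of the program were lower in Smad7-KO than in control cells in both conditions. Without TGF-β1, 7 of 10 members were lower in Smad7-KO fibroblasts and 0 higher, where 13.7% of all tested genes were lower and 12.1% higher. With TGF-β1, again 7 members were lower and 0 higher, where 7.23% of all tested genes were lower and 5.72% higher. The members were chosen with earlier results of these data known, so these shares are a background and not a test of the list. Calls rest on edgeR's quasi-likelihood test at a Benjamini-Hochberg adjusted p of 0.05 or less over all tested genes. The median log2 fold change of the members was -0.74 without TGF-β1 and -0.64 with it, against -0.015 and -0.021 over all tested genes. Phgdh, Psph, Pycr1, Asns and Chac1 were called in each of them. The libraries of both groups did not overlap for 8 members without TGF-β1 and 9 with it, all lower in Smad7-KO, where 19.2% and 23% of all tested genes were lower without overlap. The main fit shares its estimate of spread between all groups, and unstimulated controls varied most, as given above. Fitted on only the libraries of the comparison, Pycr1 alone kept its call without TGF-β1, where 660 genes were called over all genes instead of 3907. Atf4, Phgdh, Psph, Shmt2, Asns and Chac1 lost theirs (edgeR adjusted p = 0.0675 to 0.142). The count without TGF-β1 was 3 when Smad7-KO library 1 or library 3 was left out. With TGF-β1 the count was 2 without control library 2, Smad7-KO library 1 or Smad7-KO library 2, and 3 without control library 3 or Smad7-KO library 3. Without that control library 2, 883 genes were called over all genes with TGF-β1 instead of 1962.

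**Figure D1:**
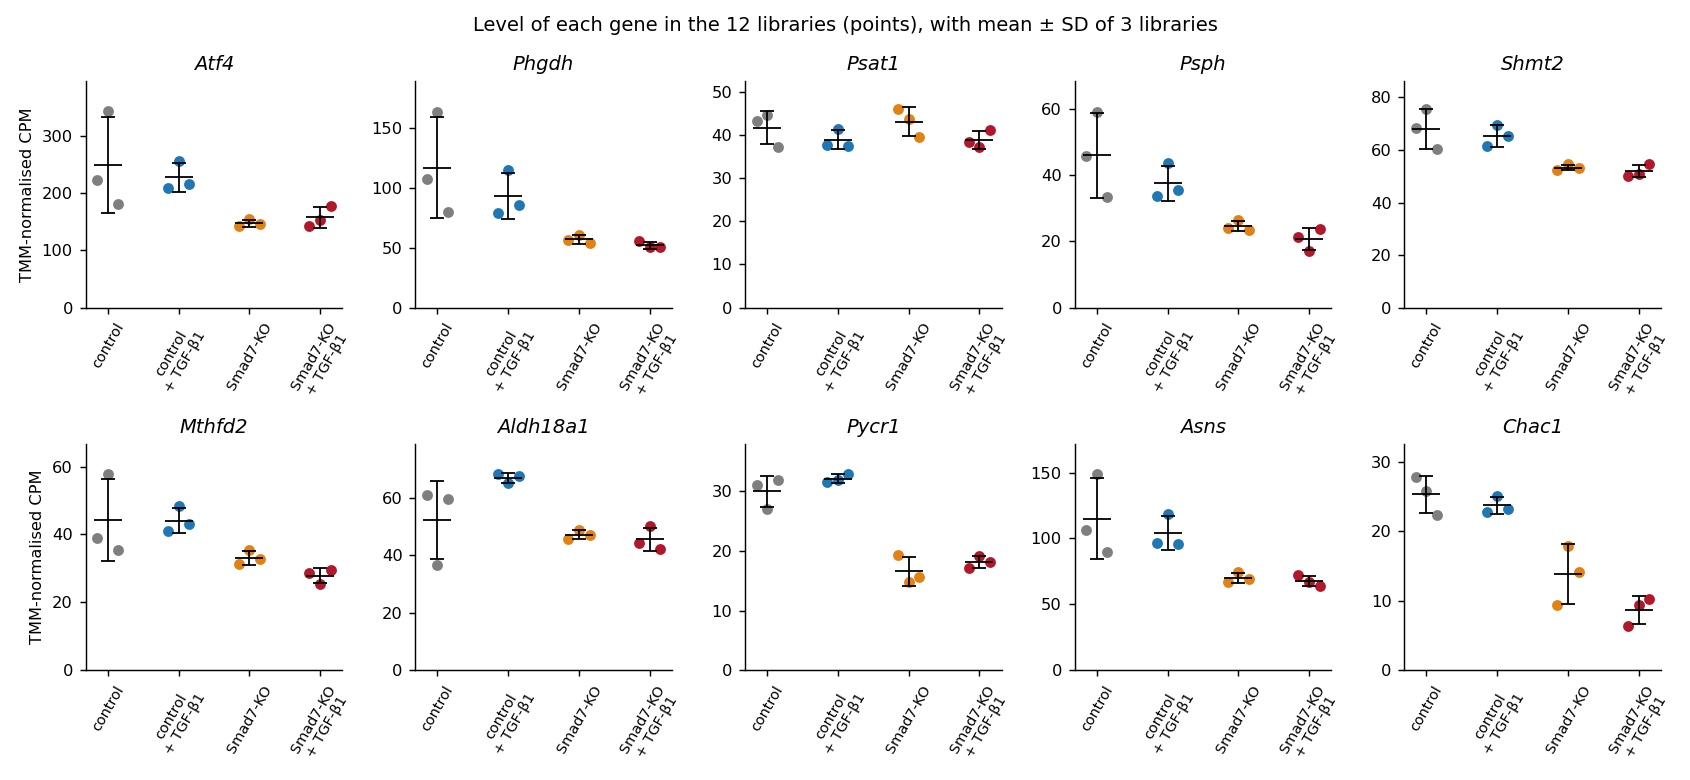
Level of each member in TMM-normalised CPM (linear axis from 0) in the 12 libraries, shown as points by group, with the mean and SD of 3 libraries. In 9 of 10 panels the Smad7-KO libraries with TGF-β1 lie below all control libraries with TGF-β1, and Psat1 is the exception.

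Atf4 (ENSMUSG00000042406, chr15:80255184-80257540, GRCm38) encodes the transcription factor itself. Its level was 224, 344 and 181 CPM in unstimulated controls and 142, 154 and 146 CPM in unstimulated Smad7-KO cells. Every Smad7-KO library lay below every control library. The log2 fold change was -0.76 (SE 0.197, edgeR adjusted p = 0.0202), with a 95% interval of -1.19 to -0.33. Without control library 2 the value was -0.45 and still past the threshold, while leaving out any one Smad7-KO library ended the call (edgeR adjusted p = 0.0591 to 0.0716).

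With TGF-β1, Atf4 was 210, 257 and 216 CPM in control and 142, 153 and 178 CPM in Smad7-KO libraries, again with no overlap. The log2 fold change of -0.53 (SE 0.196) did not pass the threshold (edgeR adjusted p = 0.0997). Without unstimulated control library 2, which adds to the shared estimate of spread, it was -0.51 and passed (edgeR adjusted p = 0.00509).

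Serine synthesis from glycolytic 3-phosphoglycerate runs through PHGDH, PSAT1 and PSPH in turn. Phgdh (ENSMUSG00000053398, chr3:98313170-98339990), for the first and committing step, was 107, 163 and 80.1 CPM in unstimulated controls and 56.1, 60.8 and 53.6 CPM in Smad7-KO cells. The log2 fold change was -1.04 (SE 0.222, edgeR adjusted p = 0.00868), and without control library 2 it was -0.71, still past the threshold. Fitted on only the libraries of the comparison, Phgdh lost this call (edgeR adjusted p = 0.0725). With TGF-β1, Phgdh was 78.6, 115 and 86.0 CPM in control and 55.4, 50.2 and 50.7 CPM in Smad7-KO libraries. The groups did not overlap, and the log2 fold change was -0.84 (SE 0.222, edgeR adjusted p = 0.0292). Without control library 2 it was -0.65 and the call was lost (edgeR adjusted p = 0.147), as it was in 5 of 12 fits that left out 1 library.

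Psph (ENSMUSG00000029446, chr5:129765558-129787252), which removes the phosphate in the last step, moved with Phgdh. It was 45.9, 59.1 and 33.3 CPM in unstimulated controls and 24.1, 26.4 and 23.5 CPM in Smad7-KO cells (log2 fold change -0.90, SE 0.195, edgeR adjusted p = 0.00897). After TGF-β1 it was 33.6, 43.6 and 35.5 CPM in control and 21.4, 17.2 and 23.6 CPM in Smad7-KO libraries (log2 fold change -0.86, SE 0.195, edgeR adjusted p = 0.0150). In both conditions the lowest control library stayed above the highest Smad7-KO library. The call with TGF-β1 was lost in 3 of 12 fits that left out 1 library (edgeR adjusted p = 0.0544 to 0.0779). The call without TGF-β1 was lost when only the libraries of the comparison were fitted (edgeR adjusted p = 0.0675).

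Psat1 (ENSMUSG00000024640, chr19:15904678-15947337), the aminotransferase between those steps, did not move with them between control and Smad7-KO cells. It was 43.3, 44.6 and 37.3 CPM in unstimulated controls and 46.1, 43.7 and 39.6 CPM in Smad7-KO cells, and the groups overlapped. The log2 fold change was 0.047, with a 95% interval of -0.18 to 0.27 (edgeR adjusted p = 0.742). With TGF-β1 it was 37.7, 41.5 and 37.6 CPM in control and 38.3, 37.2 and 41.1 CPM in Smad7-KO libraries, a log2 fold change of -0.0021 with an interval of -0.23 to 0.22 (edgeR adjusted p = 0.992). These intervals leave out the point estimates of Phgdh and Psph in both conditions.

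The differing course of the serine enzymes was also read within each library, as a ratio of FPKM values (fragments scaled to gene length and library total), which needs no scaling between libraries. The ratio of Phgdh to Psat1 was 2.89 to 5.05 in the 6 control libraries and 1.68 to 2.00 in the 6 Smad7-KO libraries. The ratio of Psph to Psat1 was 0.812 to 1.20 in control and 0.421 to 0.550 in Smad7-KO libraries. These ratios, and that of Pycr1 to Aldh18a1, were chosen after the values of the genes were seen and carry no test. A length trend within a library does not cancel between genes of different length. The highest control value of each ratio was that of unstimulated control library 2.

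SHMT2 turns serine into glycine in mitochondria and passes the carbon unit to folate, and MTHFD2 oxidises that unit. Shmt2 (ENSMUSG00000025403, chr10:127517123-127522444) was 68.5, 75.5 and 60.3 CPM in unstimulated controls and 52.5, 54.5 and 53.0 CPM in Smad7-KO cells. Its change was called at -0.35 on the log2 scale (SE 0.101, edgeR adjusted p = 0.0294), but the call was lost in 6 of 12 fits that left out 1 library. In stimulated cells it was 61.4, 69.6 and 65.2 CPM in control and 50.1, 51.0 and 54.6 CPM in Smad7-KO libraries (log2 fold change -0.33, edgeR adjusted p = 0.0513). The libraries did not overlap in either condition. Shmt2 overlaps Ndufa4l2 on the opposite strand, which had at most 315 counts in a library, and the strand setting of the counting is not stated.

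Mthfd2 (ENSMUSG00000005667, chr6:83305691-83317606) was 39.1, 57.9 and 35.5 CPM in unstimulated controls and 31.3, 35.4 and 32.8 CPM in Smad7-KO cells. The groups were set apart only narrowly, and the log2 fold change of -0.41 did not pass (edgeR adjusted p = 0.0795). With TGF-β1 it was 41.0, 48.3 and 43.0 CPM in control and 28.6, 25.5 and 29.5 CPM in Smad7-KO libraries, a log2 fold change of -0.66 (SE 0.164, edgeR adjusted p = 0.0226). That call was lost in 5 of 12 fits that left out 1 library (edgeR adjusted p = 0.0567 to 0.107). Whether the effects in both conditions differ was tested by the interaction, which gave -0.25 on the log2 scale with an interval of -0.76 to 0.26 (edgeR adjusted p = 0.980).

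Proline is made from glutamate by ALDH18A1, which activates glutamate, and PYCR1, which carries out the last step in mitochondria. Pycr1 (ENSMUSG00000025140, chr11:120635712-120643769) was 31.1, 27.1 and 31.9 CPM in unstimulated controls and 19.4, 14.8 and 15.6 CPM in Smad7-KO cells. In stimulated cells Pycr1 was 31.6, 31.9 and 33.0 CPM in control and 17.2, 19.2 and 18.2 CPM in Smad7-KO libraries. In both conditions the highest Smad7-KO library, at 19.4 and 19.2 CPM, lay below the lowest control library, at 27.1 and 31.6 CPM. The log2 fold change was -0.86 (SE 0.121, edgeR adjusted p = 0.000955) without TGF-β1 and -0.82 (SE 0.120, edgeR adjusted p = 0.0015) with it. Both calls held in all 20 alternative fits.

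Aldh18a1 (ENSMUSG00000025007, chr19:40550257-40588463) was 60.9, 36.8 and 59.6 CPM in unstimulated controls and 45.8, 48.9 and 47.0 CPM in Smad7-KO cells. Control library 2, the highest library for Atf4 and Phgdh, was the lowest here, and the groups overlapped through it (log2 fold change -0.15, edgeR adjusted p = 0.483). Without that library the log2 fold change was -0.35 (edgeR adjusted p = 0.0180). With TGF-β1 the gene was 68.4, 65.1 and 67.7 CPM in control and 44.4, 50.1 and 42.1 CPM in Smad7-KO libraries (log2 fold change -0.56, SE 0.162, edgeR adjusted p = 0.0435). That call passed in 8 of 20 alternative fits. The ratio of Pycr1 to Aldh18a1 in FPKM was 0.559 to 0.891 in control and 0.367 to 0.524 in Smad7-KO libraries.

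ASNS makes asparagine from aspartate and glutamine. Asns (ENSMUSG00000029752, chr6:7675169-7693254) was 107, 149 and 89.7 CPM in unstimulated controls and 67.1, 74.3 and 69.0 CPM in Smad7-KO cells (log2 fold change -0.71, SE 0.166, edgeR adjusted p = 0.0126). After TGF-β1 it was 96.8, 119 and 96.2 CPM in control and 72.0, 67.4 and 63.9 CPM in Smad7-KO libraries (log2 fold change -0.62, SE 0.166, edgeR adjusted p = 0.0311). The groups did not overlap in either condition, but leaving out 1 library ended the call in 2 of 12 fits without TGF-β1 and in 7 of 12 with it.

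CHAC1 breaks down glutathione, and its gene is among the most responsive targets of ATF4. Chac1 (ENSMUSG00000027313, chr2:119351229-119354381) was 27.7, 25.8 and 22.4 CPM in unstimulated controls and 9.36, 17.9 and 14.2 CPM in Smad7-KO cells (log2 fold change -0.87, SE 0.222, edgeR adjusted p = 0.0192). With TGF-β1 it was 22.8, 25.1 and 23.3 CPM in control and 6.38, 9.46 and 10.2 CPM in Smad7-KO libraries. This was the largest change of any member in any comparison, at a log2 fold change of -1.45 (SE 0.227, edgeR adjusted p = 0.00217), or 0.365 of the control level. It held in all 20 alternative fits, whereas the call without TGF-β1 held in 15.

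**Figure D2:**
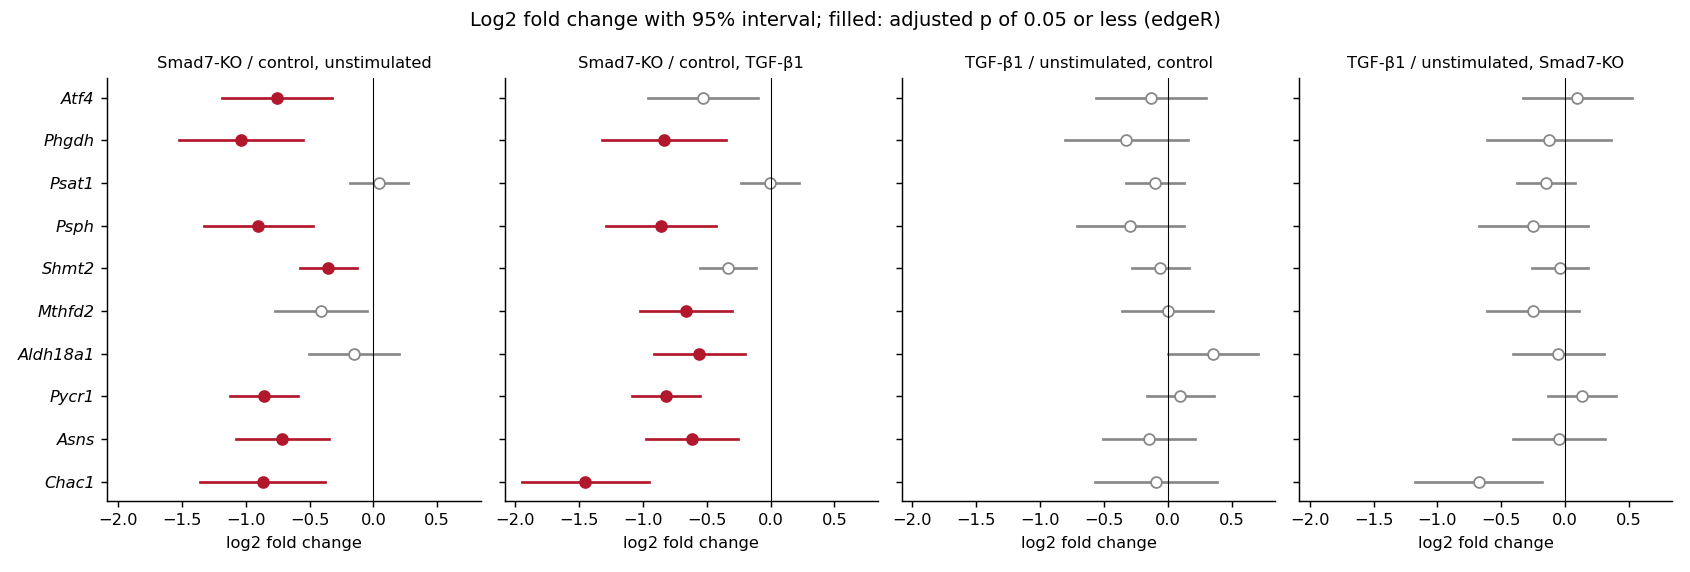
Log2 fold change of each member in the 4 comparisons (edgeR), with its 95% interval, and filled points for an adjusted p of 0.05 or less. Filled points stand in the panels of Smad7-KO against control, 7 in each and all below 0, and the panels of TGF-β1 against no stimulation hold 0.

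Fold change ran with gene length over all tested genes, and the median of the members lay below that of genes of their length. When genes were split into 3 equal length classes, 22% of the shortest, 13.6% of the middle and 5.62% of the longest were lower in unstimulated Smad7-KO cells, and the median log2 fold change went from -0.39 to 0.29 from the shortest to the longest. With TGF-β1 the shares lower were 7.66%, 9.15% and 4.89%. The members are 1637 to 3527 bases long, with 5 in the shortest class, 5 in the middle and 0 in the longest. Of all tested genes in that range, 16.5% were lower without TGF-β1 and 9.8% with it, at a median log2 fold change of -0.11 and -0.076, against -0.74 and -0.64 for the members.

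With each library's length trend removed, 6 members were lower without TGF-β1, where 15.6% of all tested genes were lower, and 9 with it, where 11.8% were. With unstimulated control library 2 left out as well, a setting chosen after seeing the data, 8 members were lower without TGF-β1 and 9 with it, where 14.8% and 17.3% of the genes tested were. In that setting Pycr1 was at -0.90 and Psph at -0.66 without TGF-β1. With the length trend alone removed, Pycr1 and Psph changed little, at -0.83 and -0.86 without TGF-β1 and -0.78 and -0.81 with it. Both are among the longer members. Atf4 went from -0.76 to -0.41 without TGF-β1 and from -0.53 to -0.35 with it, and both corrected values passed the threshold. Chac1 lost its call without TGF-β1 at -0.55 (edgeR adjusted p = 0.0625) and stood at -1.27 with it. Asns and Phgdh without TGF-β1 went to -0.47 and -0.74, both past the threshold. Why fold change follows length was not tested.

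**Figure D3:**
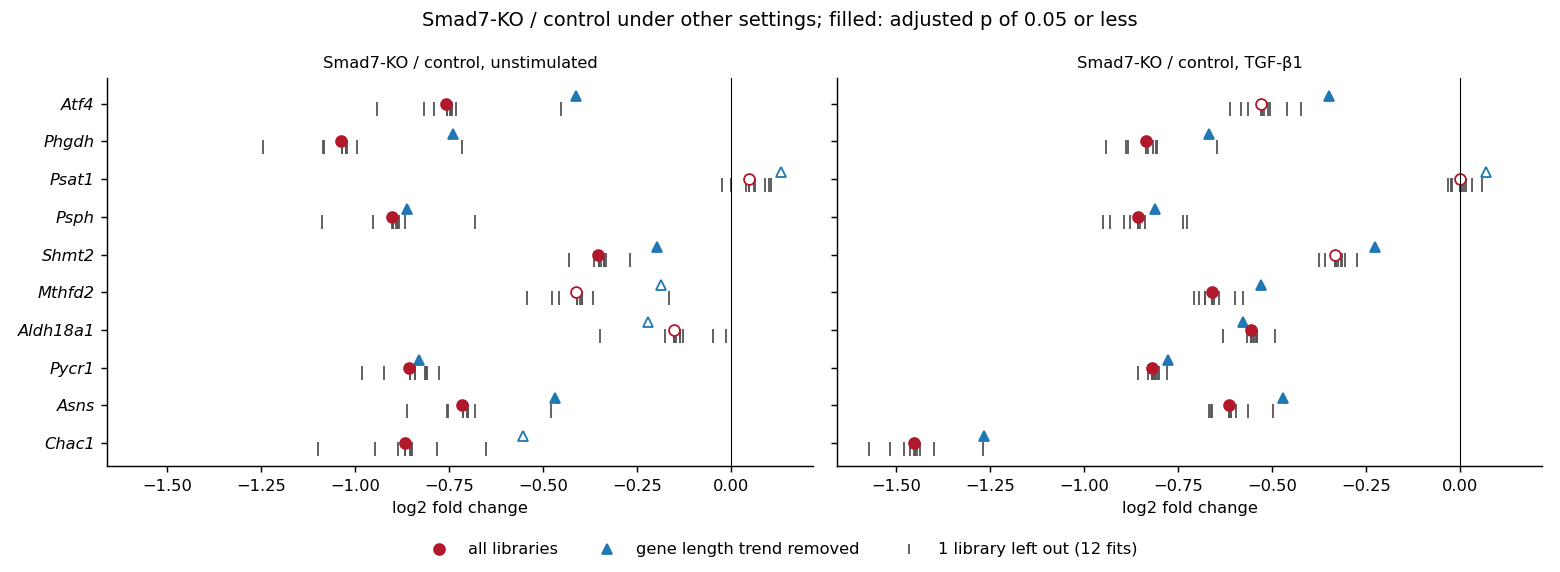
Log2 fold change of each member in Smad7-KO against control with all libraries (circles), with the gene length trend removed (triangles) and with each of the 12 libraries left out (ticks), and filled circles and triangles for an edgeR adjusted p of 0.05 or less. The ticks of Pycr1, Psph, Phgdh and Chac1 lie at -0.647 or lower in both panels, and those of Psat1 lie on both sides of 0.

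**Figure D4:**
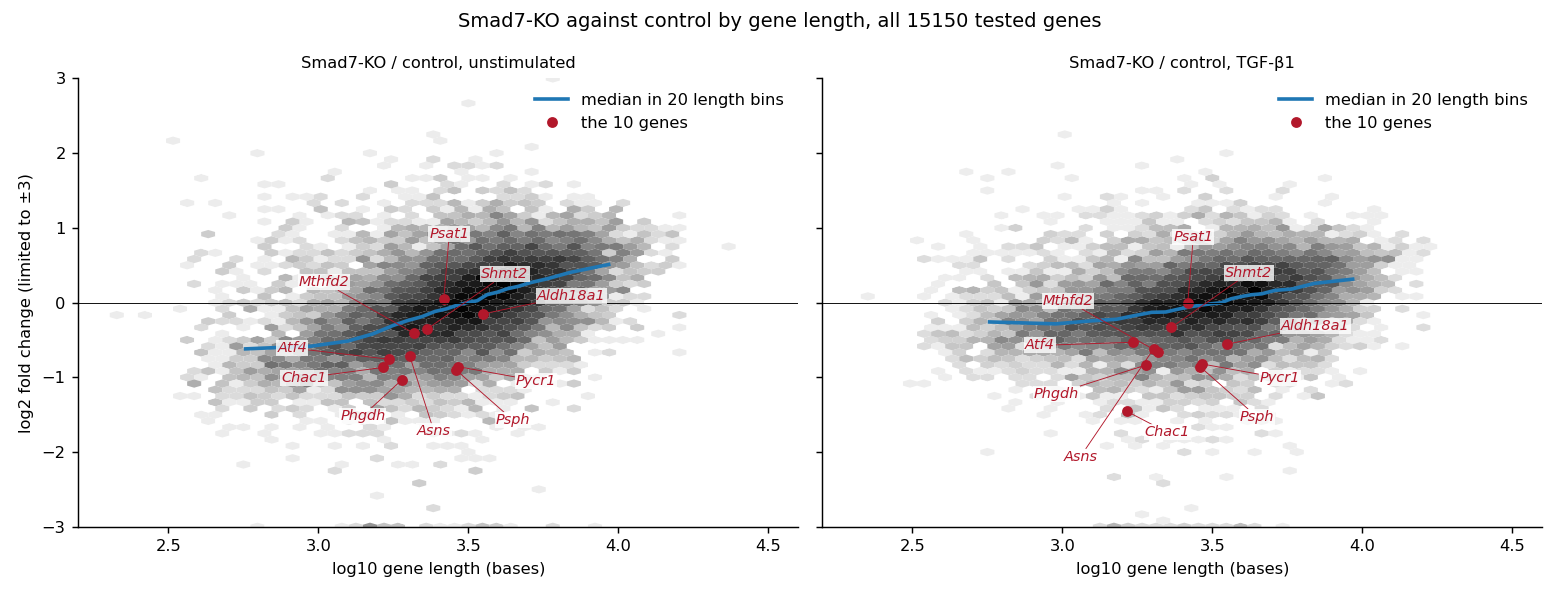
Log2 fold change of Smad7-KO against control (vertical axis, limited to ±3) by log10 gene length in bases, for the 15150 tested genes as grey density, with the median in 20 length bins as a line and the 10 members as points. Psat1 lies above the line, and Phgdh, Psph and Pycr1 lie below it, in both panels.

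TGF-β1 itself did not move the members past the threshold in edgeR, which for 10 genes is near the shares of all tested genes given below. In control fibroblasts 0 of 10 members were called by edgeR or DESeq2, and 0 had an unadjusted p under 0.05 in edgeR (DESeq2 had 1), where 8.37% of all tested genes were called. Aldh18a1 had the highest fold change, at 0.35 on the log2 scale with a 95% interval of -0.00069 to 0.71 (edgeR adjusted p = 0.248), and was the member whose libraries did not overlap, where 10.9% of all tested genes were higher without overlap. Phgdh had the lowest, at -0.33 with an interval of -0.81 to 0.16 (edgeR adjusted p = 0.459). Both values rest on unstimulated control library 2, without which Aldh18a1 was at 0.15 and Phgdh at -0.0081. Intervals of this width hold changes as large as some that were called for Smad7 loss.

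In Smad7-KO fibroblasts 0 of 10 members were called by edgeR and 1 by DESeq2, where edgeR called 10.2% of all tested genes. The member called by DESeq2 was Chac1, which edgeR put at a log2 fold change of -0.68 (SE 0.227, unadjusted p = 0.0119, adjusted p = 0.0921). Its levels without TGF-β1 spread from 9.36 to 17.9 CPM and overlapped those with TGF-β1. Without unstimulated Smad7-KO library 1 the change was -0.89 and passed (edgeR adjusted p = 0.0220). Mthfd2 was the member whose libraries did not overlap, at -0.25 on the log2 scale (edgeR adjusted p = 0.484), where 19.9% of all tested genes were lower without overlap. The log2 fold changes of the other members in Smad7-KO cells ran from -0.25 for Psph to 0.13 for Pycr1.

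The interaction, which asks whether the TGF-β1 effect differs between Smad7-KO and control cells, was called for 0 of 10 members by edgeR and by DESeq2, and 0 had an unadjusted p under 0.05. Across all tested genes 0.0198% were called. The estimates furthest from 0 were -0.58 for Chac1 (interval -1.27 to 0.11) and -0.41 for Aldh18a1 (interval -0.91 to 0.10), on the log2 scale.

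Levels between members were compared per length, as FPKM. Atf4 was the highest in all 4 groups, from 86.3 ± 3.47 FPKM (SD, n = 3) in unstimulated Smad7-KO to 142 ± 37.7 in unstimulated control. Phgdh and Asns followed in every group and overlapped each other in controls, whereas in both Smad7-KO groups Asns was above Phgdh in all libraries. Asns was 35.1 ± 1.81 and Phgdh 30.3 ± 1.94 FPKM in unstimulated Smad7-KO cells. Shmt2 took the fourth place in all groups. Psat1, for which no change was called, was in the sixth and the seventh place in the control groups and in the fifth in both Smad7-KO groups, at 16.6 ± 1.29 FPKM without TGF-β1 and 14.6 ± 0.772 with it. Psat1 and Mthfd2 overlapped in both Smad7-KO groups. Pycr1 was lowest in 3 groups, at 10.3 ± 1.53 FPKM in unstimulated controls, and Chac1 was lowest in Smad7-KO cells with TGF-β1, at 5.21 ± 1.20 FPKM.

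Over the 12 libraries, 43 of 45 pairs of members had a positive Pearson r of their log2 CPM, with a median of 0.76. The lowest of these was -0.45, between Psat1 and Aldh18a1. Around the group means, 30 of 45 were positive, the median was 0.44, and every negative pair held Aldh18a1 or Pycr1. The lowest value around the group means was -0.90, between Mthfd2 and Aldh18a1, and the lowest for Pycr1 was -0.65, with Mthfd2. Psat1 had an r of 0.72 with Phgdh and 0.82 with Psph around the group means, and -0.52 with Aldh18a1 and -0.0064 with Pycr1. Points of one group share their condition and all genes share library composition, so these values describe the libraries and carry no test. The genes outside the members whose log2 CPM was most like the members' mean profile were Tspan3, Aga, Tsnax, Oat and Herpud1, at r of 0.979 to 0.989 over 12 libraries. Of 12193 candidates, 523 had an r over 0.9. For Atf4 they were Prkcsh, Timm17a, Mgp, Tmem128 and Sra1, at r of 0.990 to 0.997, with 1252 candidates over 0.9.

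The other genes of the pathway are read against the shares of all tested genes, which were 13.7% lower and 12.1% higher without TGF-β1, and 7.23% lower and 5.72% higher with it. Of 7 paralogs of the members, 2 were lower and 0 higher in unstimulated Smad7-KO cells, and 3 and 0 with TGF-β1. Atf5, a bZIP factor that shares targets with ATF4, had a log2 fold change of -0.85 (edgeR adjusted p = 0.00139) and -0.80 (edgeR adjusted p = 0.00238). Mthfd2l, the other mitochondrial enzyme of the MTHFD2 step, changed by -0.79 in both conditions (edgeR adjusted p = 0.00778 and 0.00934). Mthfd1, the cytosolic folate enzyme, was lower with TGF-β1 at -0.40 (edgeR adjusted p = 0.0239). Mthfd1 was also higher with TGF-β1 than without it in control cells, by 0.36 on the log2 scale (edgeR adjusted p = 0.0483). Shmt1, the cytosolic relative of Shmt2, had 0.49 and 0.48 and did not pass (edgeR adjusted p = 0.265 and 0.366). The values of Pycrl were -0.59 and -0.29, of Chac2 -0.51 and -0.13, and of Mthfd1l 0.20 and 0.079, and no value of these 3 genes passed.

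Upstream of ATF4, eIF2α is phosphorylated by 4 kinases and dephosphorylated by PP1 with its regulatory subunits. Of 8 genes of this group, 2 were higher and 1 lower without TGF-β1, and 1 higher and 1 lower with it, beside 12.1% higher and 13.7% lower, then 5.72% and 7.23%, of all tested genes. Eif2ak4, the GCN2 kinase that senses uncharged tRNA, was higher by 0.52 (edgeR adjusted p = 0.0484) and 0.66 (edgeR adjusted p = 0.0279) on the log2 scale. Eif2ak2, the kinase PKR, was higher without TGF-β1 by 0.50 (edgeR adjusted p = 0.0494). Ppp1r15a, the inducible GADD34 subunit and itself an ATF4 target, had a log2 fold change of -0.62 (edgeR adjusted p = 0.0204) and -0.88 (edgeR adjusted p = 0.00533). Phosphorylation itself is not measured by these libraries.

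Other regulators downstream of ATF4 went both ways. Of 11, 1 was higher and 3 lower without TGF-β1, and 1 higher and 2 lower with it. The shares of all tested genes were 12.1% higher and 13.7% lower, then 5.72% and 7.23%. Nupr1, a stress-induced chromatin protein, had a log2 fold change of -1.13 without TGF-β1 (edgeR adjusted p = 0.0109) and -0.87 with it (edgeR adjusted p = 0.0424). It was higher by 0.99 after TGF-β1 in Smad7-KO cells (edgeR adjusted p = 0.0271). In control cells its mean was 218 CPM without TGF-β1 and 362 CPM with it, without a call. Ddit3, which encodes CHOP, had -1.004 without TGF-β1 although its libraries overlapped (edgeR adjusted p = 0.0410). Eif4ebp1, an inhibitor of cap-dependent translation, had -0.83 (edgeR adjusted p = 0.0448), also with overlap. Trib3, a pseudokinase that inhibits ATF4, was lower with TGF-β1 at -0.98 (edgeR adjusted p = 0.0154). Cebpg, a bZIP partner of ATF4, was the one higher, by 0.37 (edgeR adjusted p = 0.0273) and 0.48 (edgeR adjusted p = 0.0125). After TGF-β1 in Smad7-KO cells Cebpg was higher by 0.39 (edgeR adjusted p = 0.0335) and Vldlr, a lipoprotein receptor, had -0.65 (edgeR adjusted p = 0.0480). In control cells Cebpg had means of 62.5 CPM without TGF-β1 and 76.4 with it, and Vldlr 29.4 and 25.3, without a call.

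Of 10 amino acid transporters tested, 1 was lower without TGF-β1, where 13.7% of all tested genes were, and 3 with it, where 7.23% were, and 0 were higher. Slc1a5, a glutamine carrier, had a log2 fold change of -0.38 (edgeR adjusted p = 0.0238) and -0.48 (edgeR adjusted p = 0.0111), and was also lower after TGF-β1 in control (-0.69, edgeR adjusted p = 0.00121) and Smad7-KO cells (-0.79, edgeR adjusted p = 0.000405). Slc1a4, a carrier of alanine and serine, was lower with TGF-β1 at -0.67 (edgeR adjusted p = 0.0014). Within each genotype, Slc1a4 was higher after TGF-β1, by 0.98 in control (edgeR adjusted p = 7.16e-05) and 0.60 in Smad7-KO cells (edgeR adjusted p = 0.00193). Slc7a5, a large neutral amino acid carrier, was lower with TGF-β1 at -0.47 (edgeR adjusted p = 0.0285). Slc7a11, the cystine carrier, was lower after TGF-β1 in Smad7-KO cells at -0.96 (edgeR adjusted p = 0.0178). In control cells its mean was 20.4 CPM without TGF-β1 and 14.6 CPM with it, without a call.

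Among 20 cytosolic aminoacyl-tRNA synthetases, several of which ATF4 is known to induce, 6 were lower without TGF-β1 and 4 with it, and 0 were higher. Of all tested genes 13.7% and 7.23% were lower. The furthest from 0 were Yars (-0.57), Hars (-0.52) and Gars (-0.49) without TGF-β1 and Cars (-0.46), Gars (-0.43) and Vars (-0.38) with it, as log2 fold changes. The median over the 20 genes was -0.33 and -0.18. In the folate cycle and glycine cleavage, 1 of 14 was higher and 3 lower without TGF-β1, and 0 higher and 3 lower with it, against the same shares of all tested genes. Gldc, the decarboxylase of glycine cleavage, had a log2 fold change of -1.13 (edgeR adjusted p = 0.000798) and -1.32 (edgeR adjusted p = 0.000465). Mtr, methionine synthase, was higher without TGF-β1 by 0.98 (edgeR adjusted p = 0.0358). Tyms, thymidylate synthase, was higher after TGF-β1 in control cells by 0.47 (edgeR adjusted p = 0.0479). In Smad7-KO cells its mean was 9.17 CPM without TGF-β1 and 12.0 CPM with it, without a call.

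In glutamate and proline turnover, 1 of 10 was higher and 1 lower without TGF-β1, and 0 higher and 1 lower with it. These counts are near the shares of all tested genes, which were 12.1% higher and 13.7% lower without TGF-β1 and 7.23% lower with it. Oat, which links ornithine to the proline precursor, had a log2 fold change of -0.45 (edgeR adjusted p = 0.0129) and -0.43 (edgeR adjusted p = 0.0207). Glul, glutamine synthetase, was higher without TGF-β1 by 0.36 (edgeR adjusted p = 0.0191). Over the 75 genes tested in all of these lists, 5 were higher and 16 lower without TGF-β1, and 2 higher and 15 lower with it, where 5.72% of all tested genes were higher and 7.23% lower. The median log2 fold change of these 75 genes was -0.13 and -0.17, nearer to 0 than that of the 10 members.

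**Figure D5:**
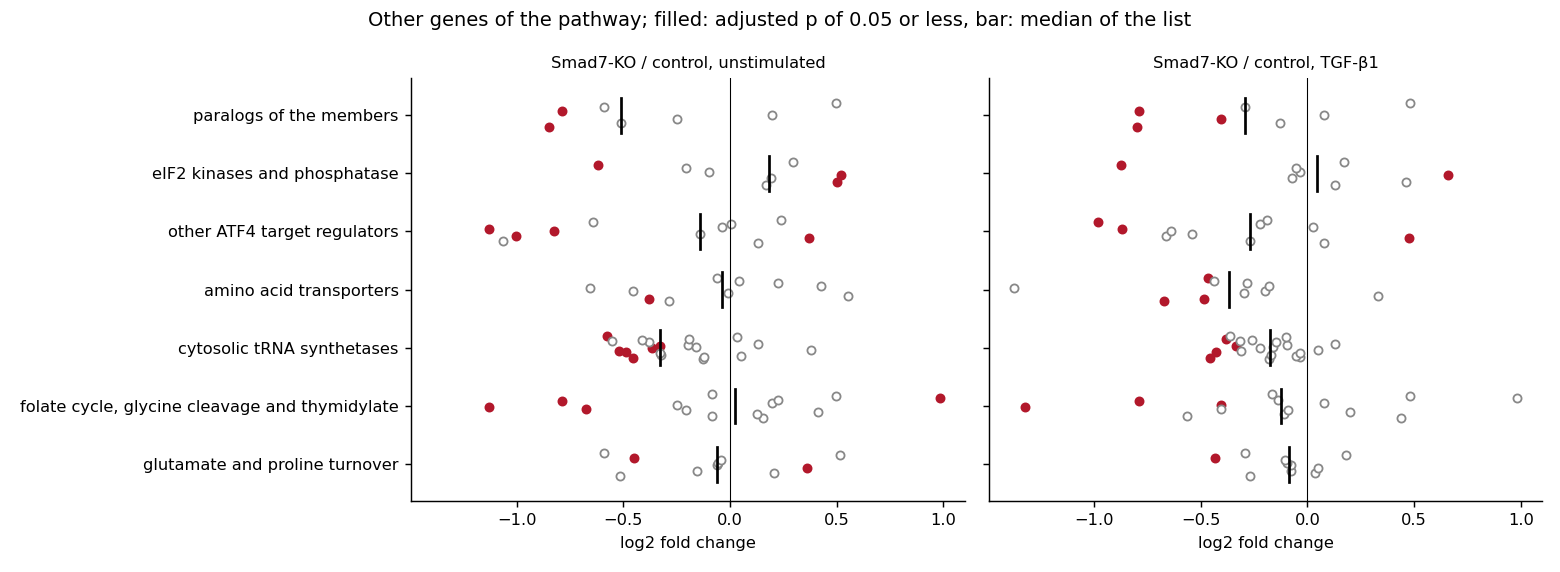
Log2 fold change of Smad7-KO against control (horizontal axis) for the other genes of the pathway, 1 row per list, with filled points for an edgeR adjusted p of 0.05 or less and a bar at the list's median. Filled points of the transporter and synthetase rows lie below 0 in both panels, while the rows of eIF2 kinases and of other regulators hold filled points on both sides.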

How the data were processed

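The authors sequenced poly(A) RNA as 100-base paired-end reads and deposited, for each of 12 libraries, raw read counts of every gene beside FPKM values. The submitters' processing notes name CASAVA, TopHat2 2.0, Cufflinks 2.1.1, HTSeq 0.6.1, mm10 and GRCm38.p6 without saying what each did, and the strand setting is not given in the sources used here. The deposited FPKM equalled count per gene length and library total, within 0.1%, in all 35275 genes. Gene lengths are those of the table.

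Counts were analysed in R 4.3.3 with edgeR 4.0.16. Low genes were dropped (filterByExpr, minimum count 10), TMM factors scaled the libraries, and one robust quasi-likelihood model took all 12. Benjamini-Hochberg adjusted p values over 15150 genes were called at 0.05 or less. Standard errors come from the coefficient and its F statistic, and 95% intervals use the model's degrees of freedom. With 3 libraries a group the smallest two-sided exact p is 0.1, and no exact test was used. Alternatives were DESeq2 1.42.0, its size factors in edgeR, no filter, edgeR on only the libraries of a comparison, limma 3.58.1 on log2(FPKM + 1), keeping genes that reached an FPKM of 1 in at least 3 libraries, a replicate block, removal of each library's loess trend on gene length (span 0.3), and leaving out each library. The procedures were tested on simulated counts. Promoter sequences are from RefSeq (GRCm38.p6), in which all 10 members were matched.

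Named were the 10 members, their paralogs, up to 3 called genes of each other list per comparison by size of change, the 5 genes most like the members and like Atf4 among those with an average log2 CPM of 1 or more, and Smad7. The members and lists were chosen with earlier results of these data known. Another gene that fits these lists is not reported here. No deposited column of values was without a sample, and protein sequences were not used here.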

Additional observations from a re-analysis of the deposited data

How the results depend on the processing

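Of 990 refitted values of single members, 914 stayed on their side of the threshold, 54 lost the call and 22 gained it, and 0 reversed a call. Of the 914, 855 kept their sign, and 59 that were called in neither fit changed it. When each of the 12 libraries was left out in turn, the number of members called ran from 3 to 8 for Smad7 loss without TGF-β1, from 2 to 9 for Smad7 loss with TGF-β1, from 0 to 1 for TGF-β1 in control cells (Psph, without unstimulated control library 3) and from 0 to 1 for TGF-β1 in Smad7-KO cells (Chac1, without unstimulated Smad7-KO library 1), and was 0 throughout for the interaction. Fitted on only the libraries of the comparison, 1 member (Pycr1) was called for Smad7 loss without TGF-β1 and 9 with it. Over all genes, that fit called 660 without TGF-β1 instead of 3907. Counts of all genes in the other fits are given below as a range only. For TGF-β1 in Smad7-KO cells, 1 member (Chac1) was called by DESeq2, 1 with the length trend removed, and 2 (Chac1 and Mthfd2) without unstimulated control library 2 and with the length trend removed, a setting chosen after seeing the data. That last setting called 8 and 9 members lower for Smad7 loss, where 14.8% and 17.3% of the genes tested were lower.

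Over all tested genes, the number called ranged from 660 to 7979 for Smad7 loss without TGF-β1 (3907 as reported), from 883 to 5504 with TGF-β1 (1962), from 391 to 3449 for TGF-β1 in control cells (1268), from 985 to 3810 in Smad7-KO cells (1550) and from 0 to 25 for the interaction (3). Of the genes called for Smad7 loss with TGF-β1, 44.1% were higher as reported and 33% to 52.8% under the alternatives. With the replicate number as a block, 7 and 6 members were lower in Smad7-KO than in control cells and 0 were called in the other comparisons. Of 18 correlations of deviations from the group means between libraries with the same number, 1 was over 0.1 (range -0.36 to 0.52). Of 36 between libraries with different numbers, 7 were over 0.1 (range -0.56 to 0.55). The deviations within a group of 3 depend on one another, so these values cannot decide whether libraries of one number share a source. The members had 345 or more counts in every library, except Chac1 with 160 or more, and the share of their error that depth sets was not tested.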
